A study of Mus musculus with 9 samples.

Results

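The genes described here are colony-stimulating factor 1 (Csf1), the receptor genes of the colony-stimulating factor (CSF) family (Csf1r, Csf2ra, Csf2rb and Csf3r), the lineage transcription factor gene Spi1 and the macrophage surface genes Adgre1, Adgre4 and Cx3cr1. These 9 genes were taken by symbol from a counts table of 53465 genes, in which each symbol stood on 1 row, and all 9 were among the 11950 genes that passed the filter on low counts. They were measured by RNA-Seq in 9 libraries of mouse bone marrow-derived macrophages (BMDMs), 3 in each of 3 groups. BMDMs are macrophages grown in culture from bone marrow, here from wild-type male mice of the C57BL/6 strain, in medium with CSF1 at 50 ng/ml, FBS at 10% and, per the labels, glutamine at 5 mM for 5 to 10 days.

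The untreated group (UNX) received no conditioned medium. The CO-CM group received medium conditioned by pulmonary artery adventitial fibroblasts of control neonatal calves, and the PH-CM group medium conditioned by the same cell type from calves with pulmonary hypertension induced by hypoxia. The labels give 16 h of treatment in one field and 24 h in another. Per the study's methods the conditioned media were supplemented with FBS, and whether CSF1 was also added to them is not given in the sources used here. Each medium was a pool from several fibroblast populations, so the 3 replicates of a group repeat the BMDM culture rather than the calves, and the p-values measure the spread between these cultures. Per the study's methods the fibroblasts were grown with bovine calf serum, and no group here received that medium unconditioned. The comparison of CO-CM or PH-CM with UNX therefore asks how the macrophages responded to the whole conditioned medium. In it, fibroblast products cannot be told apart from the medium itself. The comparison of PH-CM with CO-CM asks what differed between hypertensive and control fibroblasts.

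As background, CSF1 binds the receptor tyrosine kinase encoded by Csf1r, which macrophages need for survival and growth, and interleukin 34 is the other ligand of that receptor. GM-CSF binds an alpha subunit encoded by Csf2ra, which signals through the beta common subunit encoded by Csf2rb. Interleukins 3 and 5 use the same beta subunit with alpha subunits of their own, and mice carry a second beta gene, Csf2rb2, whose product serves interleukin 3. G-CSF acts through the receptor encoded by Csf3r, best known on neutrophils and their precursors. Spi1 encodes PU.1, an ETS family factor required for myeloid development that binds purine-rich DNA around a GGAA core. Adgre1 encodes F4/80, an adhesion G protein-coupled receptor used as a macrophage marker in mice, Adgre4 encodes a relative of it, and Cx3cr1 encodes the receptor for the chemokine fractalkine.

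Promoter sequence from RefSeq (GRCm38.p6) was at hand for 5 of the 9 genes, namely Csf1, Csf2ra, Csf3r, Adgre4 and Cx3cr1, and for the partner genes Csf2rb2, Il3ra and Il5ra. The stretches below are shown because Spi1 was measured beside its possible targets: they hold every match to GAGGAA, a core of PU.1 sites, on either strand of the 250 bases before the RefSeq start in these 8 genes. They are written 5′ to 3′ on the strand of the gene, and capitals mark the match.
Csf2ra, chr19:61228419-61228444, minus strand: caacctgcagatGAGGAAGAGGAAgc
Csf3r, chr4:126024561-126024590, plus strand: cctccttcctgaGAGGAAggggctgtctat
Csf2rb2, chr15:78305871-78305900, minus strand: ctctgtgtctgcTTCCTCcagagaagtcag
Csf2ra held 2 matches in tandem, at 14 to 9 and 8 to 3 bases before its start, and the last 11 bases before that start are exon of the gene in GENCODE. Csf3r held 1 at 86 to 81 bases before its start, in a stretch that GENCODE annotates as exon of the gene, and Csf2rb2 held 1 on the opposite strand at 167 to 162 bases. GAGGAA occurred in 23.3% of 32851 promoters of that length, so a match is a description of the letters and not evidence of binding. The windows of Csf1, Adgre4, Cx3cr1, Il3ra and Il5ra held none, and GENCODE annotates all 250 bases of the Cx3cr1 window and 220 of the Il3ra window as exon of the gene. Csf3r also held 1 match to TTGCNNNAA, the letters of C/EBP sites, at 166 to 158 bases before its start.

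The promoter of Adgre4, the gene with the largest change of the 9 against UNX, is given whole. It also held no match to TTGCNNNAA (C/EBP, 8.3% of promoters), TGANTCA (AP-1, 6.7%) or TATAAA (12.4%), each searched on both strands. At 39.6% its GC content was below the 52.4% of the median promoter.
Adgre4, chr17:55749734-55749983, plus strand: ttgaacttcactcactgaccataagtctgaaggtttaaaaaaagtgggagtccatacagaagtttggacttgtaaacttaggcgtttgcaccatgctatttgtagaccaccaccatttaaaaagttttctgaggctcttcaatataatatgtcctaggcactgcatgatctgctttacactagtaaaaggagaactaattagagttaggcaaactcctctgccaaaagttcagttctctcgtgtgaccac

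Libraries held between 62017933 and 84314201 reads counted on genes, with medians of 73898895 in UNX, 69264567 in CO-CM and 64348861 in PH-CM. Levels are given either as CPM, counts scaled to library size after TMM normalization, for one gene across libraries, or as RPKM, the authors' reads scaled to exon length and library size, to set genes beside each other. A gene was called changed at an edgeR FDR of at most 0.05, the Benjamini-Hochberg adjusted p over the 11950 genes, and a fold change of at least 1.2. An exact permutation test of 3 libraries against 3 cannot go below a two-sided p of 0.1, so calls depend on edgeR's estimate of spread, which borrows from all genes. Low counts were mostly even (81.4% to 83.8% of those under 20, by library), and the options listed for the counting name no pair setting, so both mates of a fragment seem to have been counted and low values stand for fewer fragments than reads. In bulk RNA, fewer cells of a type and less RNA per cell cannot be told apart.

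Csf1r was among the most abundant transcripts of these cells. Per exon length, its level in UNX averaged 340 ± 29.1 RPKM (SD, n = 3), rank 106 of the 11950 genes, and in PH-CM 562 ± 36.8 RPKM, rank 48. Adgre1 (198 ± 7.47 RPKM), Csf2ra (173 ± 7.75 RPKM) and Spi1 (117 ± 4.61 RPKM) followed in UNX, each above at least 97.0% of the genes tested. Csf2rb stood lower, at 27.0 ± 3.0 RPKM, and the remaining genes were in the lower part of the tested range, with Csf1 at 3.24 ± 0.768 RPKM, Csf3r at 1.95 ± 0.346 RPKM and Cx3cr1 at 1.14 ± 0.631 RPKM. Adgre4 averaged 0.0164 ± 0.0103 RPKM, rank 11940 of 11950.

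The order of these levels changed with the conditioned media at the lower end. In UNX the libraries of neighbouring genes in the order did not overlap, except those of Csf3r and Cx3cr1. In CO-CM, Csf3r stood above Csf1 and no neighbours overlapped. In PH-CM, Csf2rb overlapped Spi1, Csf3r overlapped Csf1, and Adgre4 stood above Cx3cr1, which was last at 0.143 ± 0.0205 RPKM. The places of Csf2ra and Csf2rb beside Spi1 depend on the lengths used. The lengths behind the deposited RPKM were 1849 bases for Csf2ra and 4764 for Csf2rb, against merged exons of 2871 and 7277 bases in GENCODE. For Spi1 both lengths were 2695 bases.

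**Figure D1:**
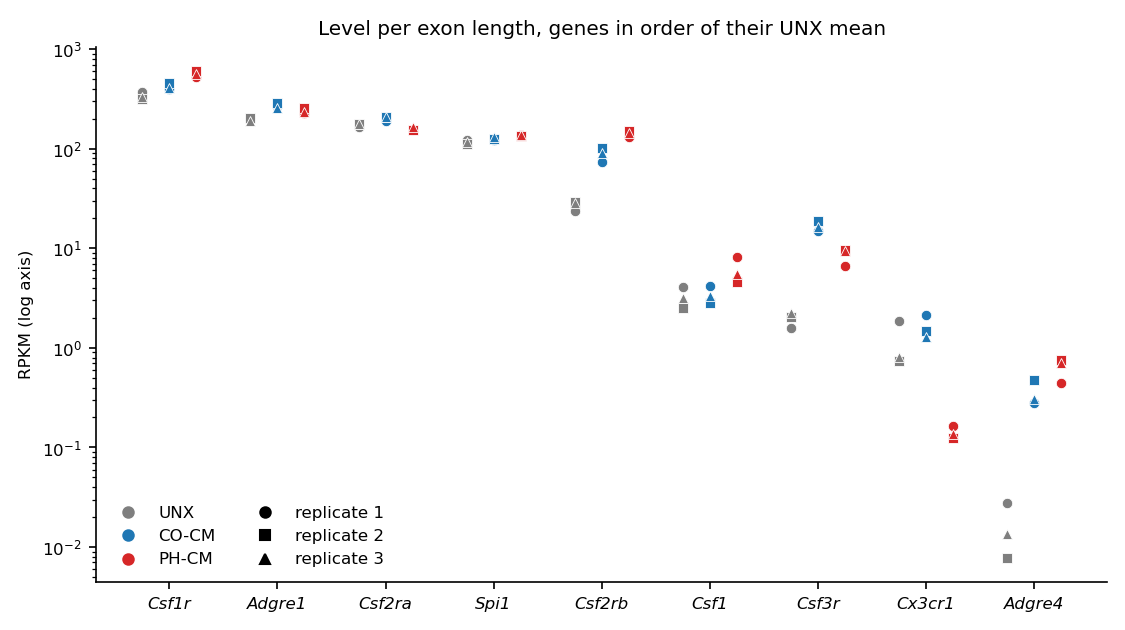
Level per exon length (RPKM, log axis) of the 9 genes in each of the 9 libraries, with colours for the groups, symbols for the replicate numbers and genes in order of their mean in UNX. Csf1r was highest in every group, between 318 and 598 RPKM over all libraries, and Csf2rb approached Csf2ra and Spi1 in PH-CM while Cx3cr1 fell below Adgre4.

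Most of the 9 genes were higher in macrophages given either conditioned medium than in UNX. Under CO-CM 6 of the 9 were called, all higher, where 57% of all genes tested were called in that comparison (28% higher and 28.9% lower). Under PH-CM 8 of the 9 were called, 7 higher and 1 lower, where 63% of all genes were called (31.3% higher and 31.7% lower). In PH-CM relative to CO-CM 7 of the 9 were called, 4 higher and 3 lower, where 27.1% of all genes were called. Adgre4 and Cx3cr1 passed the filter through only some of the groups, so their place in these counts was partly fixed by it. The median log2 fold changes of the 9 genes were 0.51, 0.78 and 0.09, beside medians over all genes tested of 2.4e-04, 0.0072 and -0.0064. Both comparisons with UNX share the same 3 untreated libraries, so their calls are not independent of each other. In each comparison, the difference between libraries of the same replicate number had the direction of the fit in all 3 numbers for all 9 genes, including changes that were not called. The fit rests on the same libraries, and the share of all genes tested for which this held was not computed. The count therefore describes the 9 genes and adds no support to their changes.

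**Figure D2:**
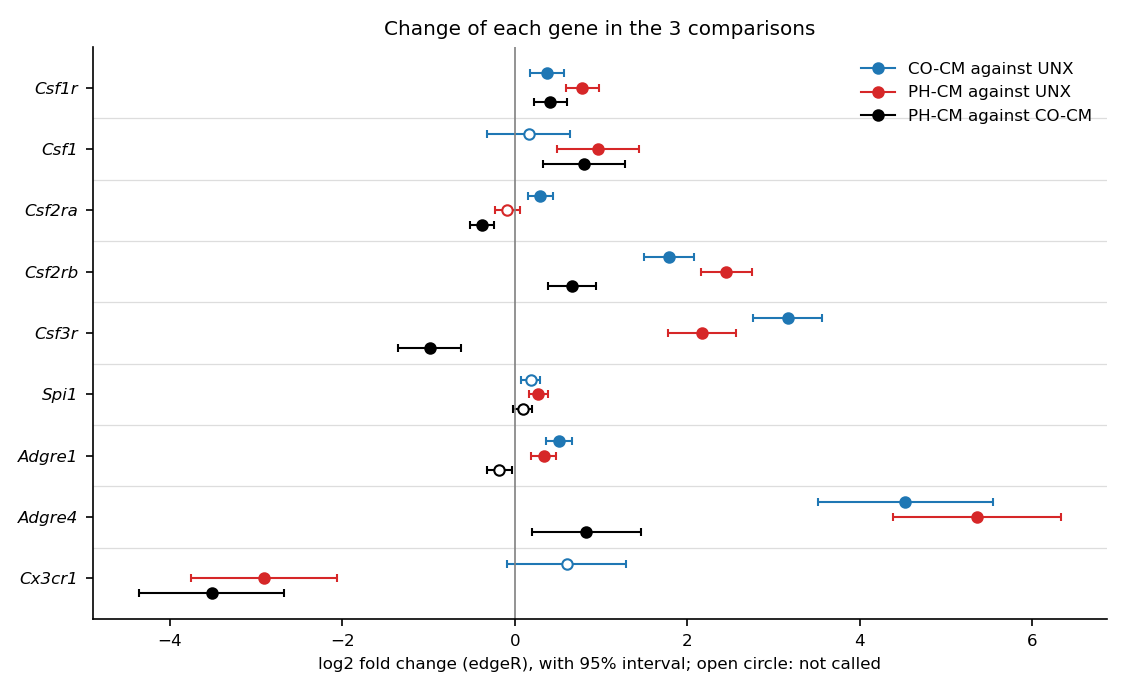
Log2 fold change with its 95% interval for each of the 9 genes in the 3 comparisons, from one edgeR fit of all 9 libraries (horizontal axis, log2 units), where filled circles were called and open circles were not. Adgre4 and Csf3r had the largest increases against UNX, at 5.36 for Adgre4 under PH-CM and 3.16 for Csf3r under CO-CM, and Cx3cr1 was the only gene called lower against UNX, at -2.91 under PH-CM.

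Csf1, the ligand gene (chr3:107741048-107760469, minus strand, GRCm38 as for all positions), was higher under PH-CM and not called under CO-CM. Its level was 20.5, 13.1 and 16.3 CPM in UNX replicates 1 to 3, 22.3, 15.5 and 17.8 CPM in CO-CM, and 42.6, 24.6 and 29.9 CPM in PH-CM. All PH-CM libraries lay above all others, whereas UNX and CO-CM overlapped. Under PH-CM Csf1 rose by 1.95-fold over UNX (log2 fold change 0.96 ± 0.22 SE, edgeR FDR 0.00209) and by 1.74-fold over CO-CM (0.80 ± 0.22, edgeR FDR 0.0141). For CO-CM against UNX the log2 fold change was 0.16, with a 95% interval from -0.32 to 0.64. The call between the media was lost without CO-CM replicate 2 (0.69, edgeR FDR 0.0549) or without CO-CM replicate 3 (0.77, edgeR FDR 0.0504). Interleukin 34, the other ligand, was hardly detected, with 55 reads of Il34 over the 9 libraries and at most 12 in one.

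Csf1r, its receptor gene (chr18:61100598-61132149, plus strand), rose stepwise over the groups. UNX libraries had 1744, 1521 and 1579 CPM, CO-CM libraries 1931, 2322 and 2018 CPM, and PH-CM libraries 2552, 2986 and 2798 CPM. The 3 groups did not overlap, and by share of all counted reads Csf1r took between 0.155% and 0.182% in UNX and between 0.256% and 0.292% in PH-CM. Csf1r was 1.29-fold higher under CO-CM (log2 fold change 0.37 ± 0.087, edgeR FDR 0.00311) and 1.72-fold higher under PH-CM (0.78 ± 0.087, edgeR FDR 1.47e-05) than in UNX, and PH-CM exceeded CO-CM by 1.33-fold (0.41 ± 0.087, edgeR FDR 0.00405). The increase over UNX was not unusual in size, since 51.7% of the genes tested changed less under CO-CM and 74.1% less under PH-CM. Csf1r shares 873 exon bases with Hmgxb3 on the opposite strand, and reads counted for Hmgxb3 came to 1.65% of those for Csf1r.

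The GM-CSF receptor subunit genes differed in their changes. For Csf2ra, the alpha subunit gene (chr19:61223957-61228429, minus strand), UNX libraries had 291, 320 and 325 CPM, CO-CM libraries 354, 397 and 398 CPM and PH-CM libraries 282, 290 and 309 CPM. CO-CM lay above both other groups, which overlapped. Csf2ra was 1.23-fold higher under CO-CM than in UNX (log2 fold change 0.29 ± 0.064, edgeR FDR 0.00197) and 0.767-fold of the CO-CM level under PH-CM (-0.38 ± 0.064, edgeR FDR 0.00103). PH-CM against UNX gave -0.09 with a 95% interval from -0.23 to 0.06. The increase under CO-CM sat at the fold threshold: it fell below 1.2-fold without UNX replicate 1 (0.23), when TMM was replaced by library size alone (0.23) and under each of the other 3 filters on low counts (0.26 in each).

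For Csf2rb, the beta common subunit gene (chr15:78325752-78353847, plus strand), UNX libraries had 108, 136 and 132 CPM, CO-CM libraries 354, 504 and 441 CPM, and PH-CM libraries 623, 729 and 701 CPM. The 3 groups were fully separate. Csf2rb rose 3.45-fold under CO-CM (log2 fold change 1.79 ± 0.13, edgeR FDR 8.74e-07) and 5.46-fold under PH-CM (2.45 ± 0.13, edgeR FDR 6.93e-08), more than 95.4% and 96.3% of the genes tested. PH-CM exceeded CO-CM by 1.58-fold (0.66 ± 0.13, edgeR FDR 0.00224).

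Set against Csf2ra per exon length, Csf2rb went from a minor to a nearly equal transcript. The ratio of Csf2rb to Csf2ra in RPKM was 0.143, 0.166 and 0.157 in UNX, 0.388, 0.493 and 0.430 in CO-CM, and 0.858, 0.976 and 0.880 in PH-CM. No library of one group came within the range of another. With the merged exon lengths of GENCODE in place of the lengths behind the deposited RPKM, the group means of this ratio were 0.158 in UNX, 0.444 in CO-CM and 0.920 in PH-CM.

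The neighbouring gene Csf2rb2, the beta subunit for interleukin 3, lies 20030 bases from Csf2rb on chromosome 15 and changed like it. Its level was 158, 227 and 212 CPM in UNX, 485, 692 and 603 CPM in CO-CM, and 788, 904 and 868 CPM in PH-CM, again in 3 separate groups. Csf2rb2 rose under CO-CM (log2 fold change 1.58 ± 0.15, edgeR FDR 5.36e-06) and under PH-CM (2.10 ± 0.15, edgeR FDR 5.12e-07), and PH-CM exceeded CO-CM (0.52 ± 0.14, edgeR FDR 0.0161). The 2 genes share little sequence at the read length: 3.47% of the windows of 150 bases along the longest Csf2rb transcript also occur in Csf2rb2. The ratio of Csf2rb2 to Csf2rb in RPKM lay between 1.52 and 1.72 in UNX, between 1.41 and 1.42 in CO-CM and between 1.28 and 1.31 in PH-CM. Its size depended on the lengths used. With the merged exon lengths of GENCODE it lay between 2.26 and 2.55 in UNX, 2.10 and 2.11 in CO-CM, and 1.90 and 1.94 in PH-CM.

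Il3ra, the alpha subunit for interleukin 3, was like Csf2ra highest in CO-CM. UNX libraries had 35.7, 45.6 and 49.6 CPM, CO-CM libraries 63.1, 80.7 and 80.6 CPM, and PH-CM libraries 43.7, 52.9 and 58.4 CPM. CO-CM lay above both other groups, which overlapped. Il3ra was higher under CO-CM than in UNX (log2 fold change 0.78 ± 0.14, edgeR FDR 6.42e-04), lower under PH-CM than under CO-CM (-0.53 ± 0.14, edgeR FDR 0.0133), and gave 0.24 ± 0.14 (edgeR FDR 0.145) for PH-CM against UNX. Il5ra, the alpha subunit for interleukin 5, had no read in any of the 9 libraries. Transcripts of the ligands were at or near 0 as well: over all 9 libraries, Il3 had 0 reads, Csf2 had 1, Il5 had 2 and Csf3 had 8.

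**Figure D3:**
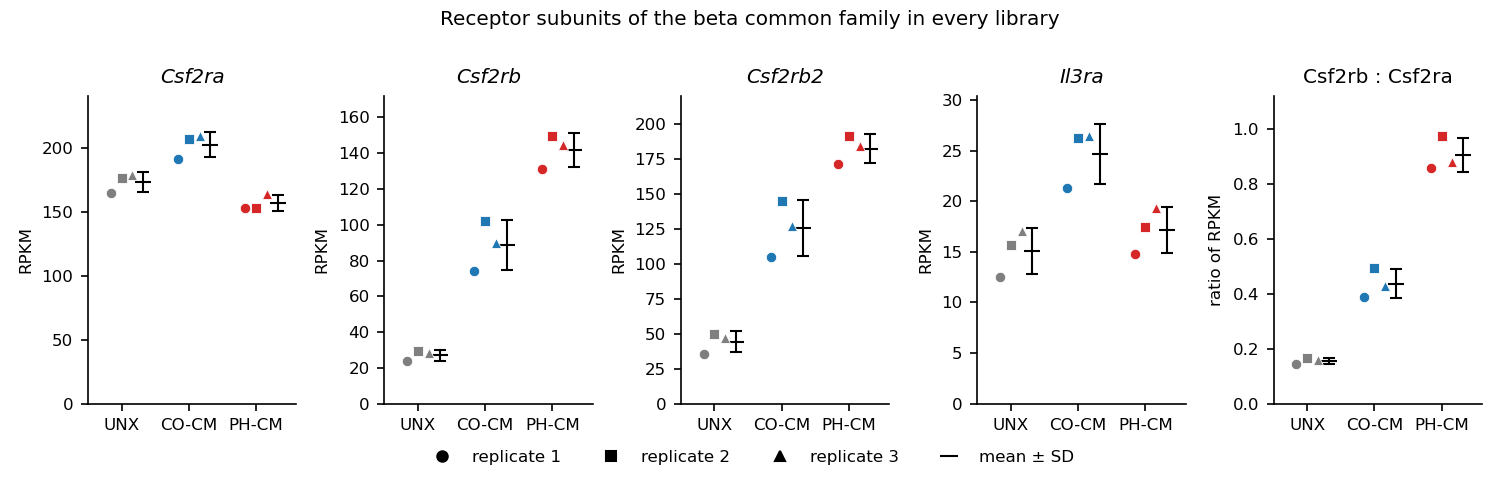
RPKM of Csf2ra, Csf2rb, Csf2rb2 and Il3ra, and the ratio of Csf2rb to Csf2ra in RPKM, in every library (linear axes from 0; symbols show the replicate number, black bars the mean ± SD of 3 libraries). Both beta subunit genes rose from UNX through CO-CM to PH-CM, both alpha subunit genes were highest in CO-CM, and the ratio went from at most 0.166 in UNX to at least 0.858 in PH-CM.

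Csf3r, the G-CSF receptor gene (chr4:126024550-126044440, plus strand), rose under both media and more under CO-CM. UNX libraries had 5.45, 7.17 and 8.0 CPM, CO-CM libraries 53.3, 70.9 and 61.3 CPM, and PH-CM libraries 24.1, 35.1 and 34.4 CPM. The groups were separate, with CO-CM highest. Csf3r rose 8.96-fold under CO-CM (log2 fold change 3.16 ± 0.18, edgeR FDR 1.52e-07) and 4.52-fold under PH-CM (2.18 ± 0.18, edgeR FDR 1.37e-06), and its level under PH-CM was 0.504-fold of that under CO-CM (-0.99 ± 0.16, edgeR FDR 9.61e-04). Its change under CO-CM was larger than that of 99.6% of the genes tested. Even so Csf1r exceeded it in every library, by 146 to 237 times in RPKM in UNX, 24.2 to 26.8 times in CO-CM and 60.1 to 78.1 times in PH-CM.

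Neutrophils are the cells best known for Csf3r, so their markers were read beside it. Of 16 neutrophil markers 5 passed the filter, 3 called higher and 1 lower under each medium against UNX, and 3 higher and 0 lower for PH-CM against CO-CM, where Csf3r was lower. That is 80%, 80% and 60% of the 5, beside 57%, 63% and 27.1% of all genes. The summed level of the 16 markers lay between 12.5 and 16.0 CPM in UNX, between 20.7 and 22.7 CPM in CO-CM and between 31.3 and 41.1 CPM in PH-CM. Most of that sum in CO-CM and PH-CM was Mmp8, and without it the ranges were 8.16 to 10.5 CPM, 7.24 to 10.1 CPM and 10.6 to 14.0 CPM. Of the markers that define the lineage, Ly6g had 0 reads in all 9 libraries, and over the 9 libraries Mpo had 11 reads and Elane 24. Among the 3 called higher under PH-CM, Mcemp1, a mast cell-expressed membrane protein, had a log2 fold change of 5.62 against UNX and passed the filter through the 3 PH-CM libraries alone, the collagenase gene Mmp8 2.34 and S100a8, a calcium-binding protein of granulocytes, 1.37. The gelatinase gene Mmp9 was the 1 lower under PH-CM, at -0.48. Most of the markers that were not tested had fewer reads in PH-CM than in UNX. S100a9 had 146 reads in UNX and 78 in PH-CM, Ngp 146 and 52, Ltf 100 and 18, and Cxcr2 28 and 2. Prtn3, with 12 and 44, and Retnlg, with 2 and 4, went the other way.

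Spi1, the gene for PU.1 (chr2:91082390-91115756, plus strand), was nearly level across the groups. UNX libraries had 312, 295 and 312 CPM, CO-CM libraries 328, 353 and 363 CPM, and PH-CM libraries 365, 370 and 377 CPM. The 3 groups did not overlap, yet the steps were small. For PH-CM against UNX the increase was 1.21-fold (log2 fold change 0.27 ± 0.049, edgeR FDR 4.81e-04), just past the threshold. CO-CM against UNX passed the FDR (0.18 ± 0.049, edgeR FDR 0.00707) at 1.13-fold and was not called, and PH-CM against CO-CM gave 0.09 with a 95% interval from -0.02 to 0.20. The call under PH-CM fell below 1.2-fold without UNX replicate 2 (0.24), with library size alone (0.22), without a filter (0.23) and under the other 2 filters (0.24 in each).

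Adgre1, the F4/80 gene (chr17:57358691-57483527, plus strand), rose under both media. Its level was 626, 645 and 603 CPM in UNX, 861, 961 and 846 CPM in CO-CM, and 740, 848 and 772 CPM in PH-CM. UNX lay below both treated groups, which overlapped each other by 1 library. The increase was 1.42-fold under CO-CM (log2 fold change 0.51 ± 0.067, edgeR FDR 6.38e-05) and 1.26-fold under PH-CM (0.33 ± 0.067, edgeR FDR 0.00106). PH-CM against CO-CM gave -0.18 ± 0.067 and was not called (edgeR FDR 0.0603). Thus Csf1r and Adgre1, both high in macrophages, stood in a different proportion under PH-CM. The ratio of Csf1r to Adgre1 in RPKM lay between 1.57 and 1.85 in UNX, between 1.49 and 1.605 in CO-CM and between 2.29 and 2.41 in PH-CM. UNX and CO-CM overlapped in this ratio, and PH-CM lay above both.

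Adgre4 (chr17:55749984-55853662, plus strand) went from almost no reads to a low level. It had 6, 2 and 4 reads in UNX, 66, 116 and 79 reads in CO-CM, and 104, 168 and 160 reads in PH-CM, or 0.0926, 0.0265 and 0.0466 CPM, 0.965, 1.74 and 1.11 CPM, and 1.55, 2.70 and 2.53 CPM. Both treated groups lay above UNX, and they overlapped each other. The log2 fold changes of 4.53 ± 0.46 under CO-CM (edgeR FDR 9.28e-06) and 5.36 ± 0.44 under PH-CM (edgeR FDR 1.37e-06) rest on 12 reads in UNX in all. Adgre4 passed the filter through treated libraries alone, with 0 UNX libraries, 2 CO-CM libraries and 3 PH-CM libraries above 1 CPM, so it had to differ in order to be tested. PH-CM was higher than CO-CM (0.83 ± 0.28, edgeR FDR 0.0409), but this call was lost without UNX replicate 3 (edgeR FDR 0.0559), CO-CM replicate 1 (0.113) or 3 (0.127), or PH-CM replicate 2 (0.138) or 3 (0.117), and under 2 other filters (0.0523 and 0.0520).

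Adgre4 lies 1505 kb from Adgre1 on chromosome 17, and none of the windows of 150 bases along the longest transcript of either gene occurs in another gene. Even in the PH-CM library nearest to parity, Adgre1 stood 328 times above Adgre4 in RPKM. Adgre5, a further gene of this receptor group, rose under CO-CM (log2 fold change 1.43 ± 0.11, edgeR FDR 1.18e-06) and PH-CM (1.33 ± 0.11, edgeR FDR 1.39e-06), with -0.10 between the media (edgeR FDR 0.494). Its value is uncertain, since it shares 895 exon bases with Ddx39 on the opposite strand and the options listed for the counting name no strand setting.

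Cx3cr1, the fractalkine receptor gene (chr9:119901616-120069879, minus strand), was lower under PH-CM than in both other groups. UNX libraries had 8.04, 3.23 and 3.61 CPM, CO-CM libraries 9.57, 6.88 and 5.99 CPM, and PH-CM libraries 0.744, 0.580 and 0.633 CPM, the last from 50, 36 and 40 reads. PH-CM lay below every other library, while UNX and CO-CM overlapped through UNX replicate 1. Cx3cr1 passed the filter through UNX and CO-CM, with 3 libraries of each and 0 PH-CM libraries above 1 CPM, so its being tested depended on the groups where it was high. The PH-CM level was 0.133-fold of UNX (log2 fold change -2.91 ± 0.38, edgeR FDR 4.87e-05) and 0.0876-fold of CO-CM (-3.51 ± 0.38, edgeR FDR 5.90e-05), and the latter change exceeded that of 99.8% of the genes tested. CO-CM against UNX was not called (0.60 ± 0.31, edgeR FDR 0.106). It was called without UNX replicate 1 (1.11, edgeR FDR 6.96e-04), with the replicate number as a block (0.66, edgeR FDR 0.00249) and without a filter on low counts (0.56, edgeR FDR 0.0172). Cx3cl1, the ligand gene, did not pass the filter, with 367 reads over the 9 libraries.

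**Figure D4:**
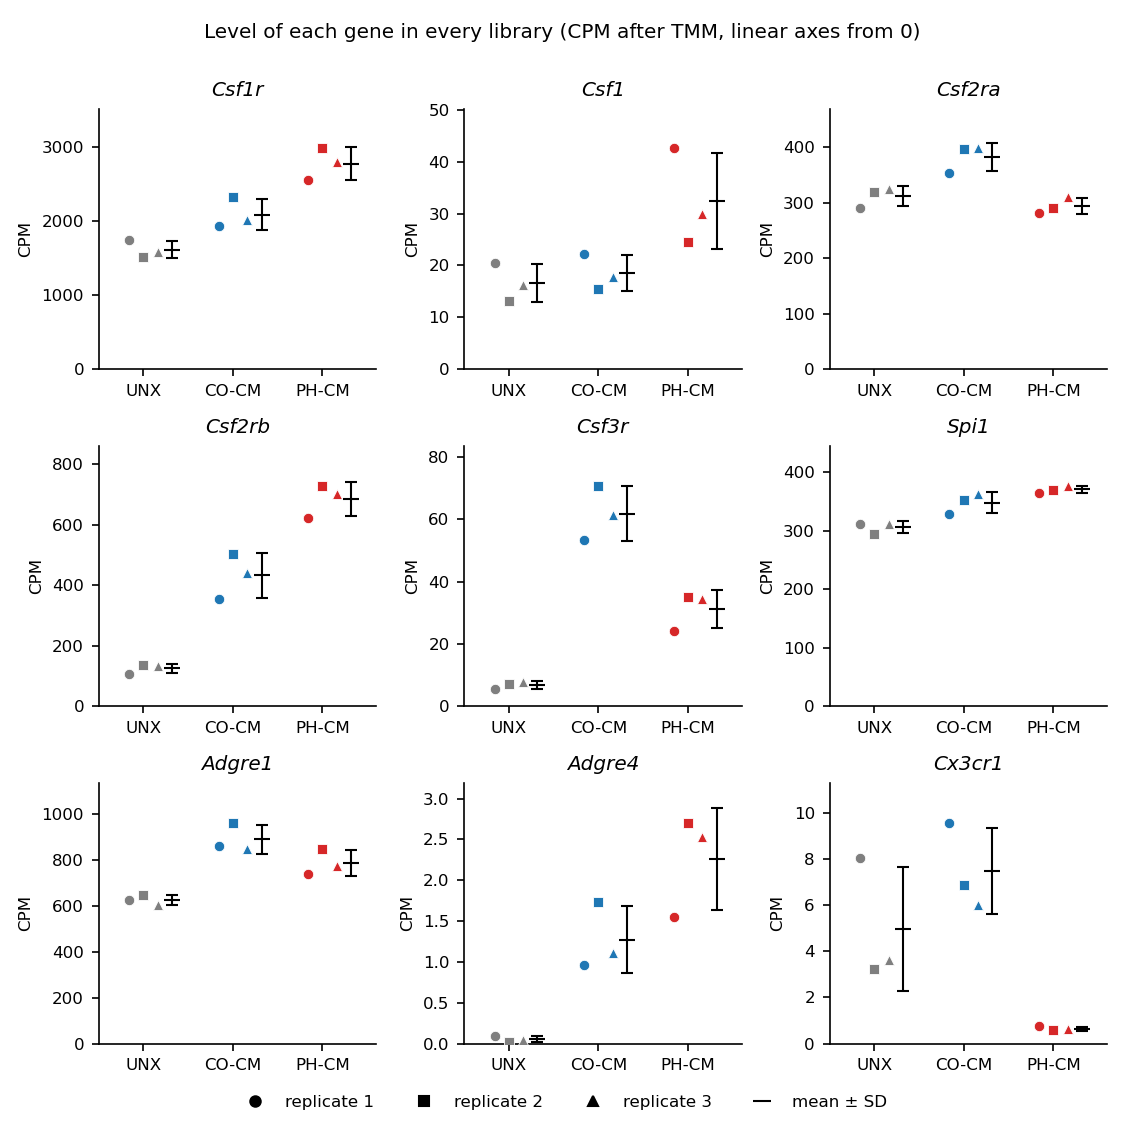
CPM of each of the 9 genes in every library, by group (linear axes from 0; symbols show the replicate number, black bars the mean ± SD of 3 libraries). Csf1r, Csf2rb and Spi1 stepped up from UNX through CO-CM to PH-CM, Csf2ra, Csf3r and Adgre1 had their highest mean in CO-CM, and Cx3cr1 was below 1 CPM in all 3 PH-CM libraries.

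The replicate numbers left a mark on several of these genes. Replicate 1 was the highest of its group for Csf1 and Cx3cr1 and the lowest for Csf2ra, Csf2rb and Csf3r, in all 3 groups. Replicate 2 was the highest in all 3 groups for Csf2rb and Adgre1 and the lowest for Csf1, and replicate 3 was the highest for Csf2ra and Spi1. The spread within a group was widest for Adgre4 (a CV of 61.4%) and Cx3cr1 (53.9%) in UNX, and narrowest for Spi1 in PH-CM (1.68%).

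Downstream of the CSF1 receptor, 22 genes of proximal signaling were read, and all 22 passed the filter. Under CO-CM 6 were higher and 7 lower, under PH-CM 6 higher and 5 lower, and between the media 5 were higher and 1 lower under PH-CM, with medians of -0.06, 0.0011 and 0.07 in log2 fold change. The shares called were 59.1%, 50% and 27.3%, beside 57%, 63% and 27.1% of all genes. The largest increases under PH-CM against UNX were in the kinase gene Src (1.46), the transcription factor gene Stat3 (1.13) and the adaptor gene Gab2 (0.71). The largest decreases were in Dok2 (-2.32), an adaptor that dampens kinase signaling, the kinase gene Fyn (-0.99) and Socs1 (-0.91), a suppressor of cytokine signaling. Src and Socs1 were the lowest of the 22 and near the filter threshold. Src averaged 1.63 CPM in UNX and 4.50 CPM in PH-CM, and Socs1 1.93 and 1.03 CPM. Dok2 fell from 236, 234 and 235 CPM in UNX to 32.5, 49.1 and 42.5 CPM in CO-CM and 43.9, 47.7 and 49.8 CPM in PH-CM. The treated groups overlapped each other, and PH-CM against CO-CM gave 0.19 (edgeR FDR 0.241).

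Other myeloid transcription factor genes moved in both directions. Of 31 listed, 24 passed the filter, with 7 higher and 8 lower under CO-CM, 10 higher and 8 lower under PH-CM, and 9 higher and 6 lower for PH-CM against CO-CM. The 24 were called in 62.5%, 75% and 62.5% of cases, beside 57%, 63% and 27.1% of all genes. Some moved less than Spi1, such as Runx1 at 0.09 (edgeR FDR 0.299) under PH-CM against UNX. Their medians in log2 fold change were -0.11, 0.09 and 0.11. Cebpa, which works with PU.1 in the myeloid lineage, rose from 90.1, 91.3 and 95.4 CPM in UNX to 371, 326 and 339 CPM in CO-CM and 248, 200 and 213 CPM in PH-CM. Cebpb, its inflammation-linked relative, had 48.0, 40.8 and 45.9 CPM in UNX, 47.4, 58.4 and 57.2 CPM in CO-CM, and 139, 179 and 175 CPM in PH-CM. Cebpa was thus highest in CO-CM and Cebpb in PH-CM: between the media the log2 fold changes were -0.65 (edgeR FDR 1.26e-04) and 1.597 (edgeR FDR 3.04e-06). Under PH-CM against UNX, Batf3 (-2.54), Egr1 (-2.40) and Egr2 (-2.20) had the largest decreases.

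The labelled cell type was checked against 26 core macrophage genes, all of which passed the filter. Lyz2, the lysozyme gene, had between 6854 and 7556 CPM in UNX, between 12536 and 13037 CPM in CO-CM and between 14487 and 15671 CPM in PH-CM, and Cd68, a lysosomal glycoprotein of macrophages, was above 2020 CPM in every library. The summed level of the 26 genes lay between 16132 and 17834 CPM in UNX, between 25045 and 26214 CPM in CO-CM and between 28903 and 31580 CPM in PH-CM. Lyz2 and another of the 26, Ctsl, made up much of that sum. In UNX, CO-CM and PH-CM the means were 7251, 12814 and 15204 CPM for Lyz2 and 1422, 2385 and 5245 CPM for Ctsl. The means of the whole sum were 17127, 25696 and 30482 CPM. Under CO-CM 11 were higher and 4 lower, under PH-CM 14 higher and 4 lower, and between the media 8 higher and 4 lower, with medians of 0.12, 0.30 and 0.11 in log2 fold change. The shares called were 57.7%, 69.2% and 46.2%, beside 57%, 63% and 27.1% of all genes. Under PH-CM against UNX, Hgf, a growth factor, had the largest increase at 2.26, followed by the protease gene Ctsl at 1.88 and Mertk, a receptor for apoptotic cells, at 1.69. Myo7a (-0.97), Arsb (-0.87) and Pecr (-0.67) had the largest decreases.

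Among 16 monocyte genes 11 passed the filter, with 4 higher and 3 lower under CO-CM, 7 higher and 2 lower under PH-CM, and 5 higher and 1 lower for PH-CM against CO-CM. The shares called were 63.6%, 81.8% and 54.5%, beside 57%, 63% and 27.1% of all genes. Vcan, a proteoglycan, had 4.17, 2.76 and 3.24 CPM in UNX, 5.27, 4.61 and 4.22 CPM in CO-CM, and 114, 155 and 141 CPM in PH-CM, a log2 fold change of 5.35 over UNX and 4.87 over CO-CM. Itgal, an integrin subunit, and F13a1, a coagulation factor subunit, also rose under PH-CM against UNX, by 1.97 and 1.95 on the log2 scale. Cd300e, an activating receptor of monocytes, fell from 8.24, 7.95 and 6.73 CPM in UNX to at most 0.234 CPM in CO-CM and 0.580 CPM in PH-CM, having passed the filter through UNX alone, and Spn, the sialophorin gene, fell by 2.21 under PH-CM on the log2 scale. Ly6c2, the marker of classical monocytes in mice, had at most 12 reads in a library, and its sum over the 9 libraries was 62 reads.

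**Figure D5:**
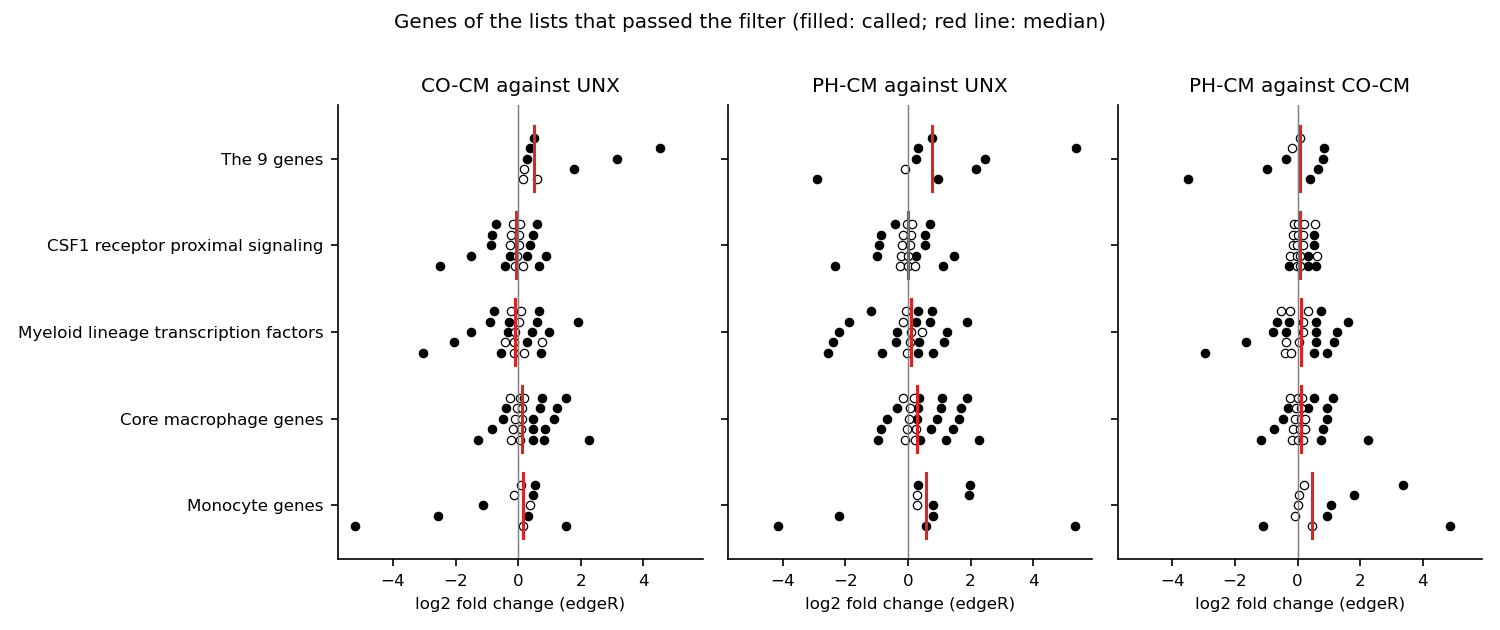
Log2 fold change of each gene that passed the filter, for the 9 genes and 4 related lists, in the 3 comparisons (horizontal axes, log2 units, the same range in each panel; filled points were called and red lines are medians). Under PH-CM against UNX the medians were 0.78 for the 9 genes, 0.0011 for CSF1 receptor signaling, 0.09 for myeloid transcription factors, 0.30 for core macrophage genes and 0.57 for monocyte genes.

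Markers of other cell types were read in the same libraries, and their part in the changes above was not tested. Of 12 lymphocyte markers 1 passed the filter, Cd4, with 1.39 to 3.31 CPM in UNX, 6.26 to 7.86 CPM in CO-CM and 13.2 to 17.1 CPM in PH-CM, while Cd3e had 2 reads over the 9 libraries. Of 12 dendritic cell markers 3 passed (Itgax, Kit and Batf3), 1 called lower under CO-CM, 3 lower under PH-CM and 3 lower for PH-CM against CO-CM. That is 33.3%, 100% and 100% of the 3, beside 57%, 63% and 27.1% of all genes. The summed level of the 12 lay between 12.2 and 39.4 CPM in UNX, between 22.6 and 67.6 CPM in CO-CM and between 6.35 and 9.07 CPM in PH-CM. Most of that sum was Itgax, with means of 23.7, 47.5 and 6.52 CPM in UNX, CO-CM and PH-CM. The means of the whole sum were 29.0, 51.3 and 7.96 CPM. Flt3, another of these dendritic cell markers, had 28 reads over the 9 libraries. Of 10 mast cell, basophil and eosinophil markers 2 passed (Siglecf and Ccr3), 0 higher and 1 lower under CO-CM, both lower under PH-CM and both lower between the media. That is 50%, 100% and 100% of the 2, beside 57%, 63% and 27.1% of all genes. The summed level of the 10 ran from 6.43 to 10.0 CPM in UNX, from 2.40 to 5.68 CPM in CO-CM and from 1.502 to 2.33 CPM in PH-CM. Kit, Batf3 and Siglecf had 0 PH-CM libraries above 1 CPM and so passed the filter through the other groups, which partly fixed their direction. Markers of these lists that were not tested also went the other way: Mcpt8, a basophil protease gene, had 16 reads in UNX and 96 in PH-CM, and Ccr7, a chemokine receptor gene, had 10 and 54.

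Of 12 fibroblast markers 9 passed the filter, with 4 higher and 0 lower under CO-CM, 6 higher and 0 lower under PH-CM, and 3 higher and 1 lower between the media. The shares called were 44.4%, 66.7% and 44.4%, beside 57%, 63% and 27.1% of all genes. The summed level of the 12 lay between 225 and 284 CPM in UNX, between 303 and 359 CPM in CO-CM and between 295 and 390 CPM in PH-CM, while Lum had 18 reads and Thy1 44 over the 9 libraries. Under PH-CM against UNX Col3a1 rose by 0.99, Col5a1 by 0.99 and Pdgfra by 0.52 on the log2 scale. Of 10 osteoclast genes 6 passed, with 5 higher and 1 lower under each medium against UNX and 0 higher and 1 lower between the media. That is 100%, 100% and 16.7% of the 6, beside 57%, 63% and 27.1% of all genes. The summed level of the 10 lay between 325 and 472 CPM in UNX, between 657 and 931 CPM in CO-CM and between 499 and 631 CPM in PH-CM. Much of that sum was Atp6v0d2 alone, with means of 155, 542 and 296 CPM in UNX, CO-CM and PH-CM. The means of the whole sum were 416, 833 and 570 CPM. Acp5 (1.603), Ctsk (1.44) and Atp6v0d2 (0.93) rose most under PH-CM against UNX, Tnfrsf11a fell by 0.83, and Calcr, which marks mature osteoclasts, had 0 reads. The other genes of this list were not tested and had fewer reads in PH-CM than in UNX. Dcstamp had 339 reads in UNX and 56 in PH-CM, Ocstamp 20 and 4, and Oscar 18 and 7.

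For each gene, the 3 genes with the most similar profile were sought among the 11950 genes tested, by the root mean square (RMS) difference of log2 CPM centred on each gene's mean over the 9 libraries. Csf2rb was most like Neurl3 (RMS difference 0.0995), Clec4a3 (0.133) and Tmem37 (0.143), against a spread of 1.05 of its own. Csf1r was most like Parp8 (0.0573), Rassf3 (0.0666) and Lemd2 (0.0723), and Csf3r was most like Ldhb (0.199), Prss46 (0.228) and Syt8 (0.283). Adgre4 and Cx3cr1, with few reads, had no close match: their nearest genes were Naip1 (0.514) and Kcnj2 (0.433). These likenesses are descriptive over 9 libraries of 3 groups, and they depended on the scale: with log2 of RPKM plus 1 in place of log2 CPM, 2 of the 3 genes were shared for Csf2rb and Spi1, 1 for Csf1r, Csf2ra, Csf3r and Adgre1, and 0 for Csf1, Adgre4 and Cx3cr1.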

How the data were processed

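RNA-Seq counts of 9 BMDM libraries were analysed, grouped by the treatment in their titles. The authors cleaned reads with AfterQC, used STAR for alignment to GRCm38 and took exon counts from featureCounts 1.6.2 (version per the submitters' processing notes). The deposited counts are unnormalized reads per gene, and the deposited RPKM values were computed by the authors from such counts, exon length and library size. The authors' tables of their own comparisons hold fold changes, p-values and FDR and were not used here.

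The analysis used edgeR 4.0.16 under R 4.3.3, with a filter of CPM above 1 in 3 or more libraries, TMM, 1 quasi-likelihood fit of all 9 libraries with a mean per group, and Benjamini-Hochberg adjustment over 11950 genes. The script was tested on simulated data first. Identifiers were matched to reference names for 53274 of 53465 rows, and positions come from GENCODE on GRCm38. The closest pair of libraries within a group had a chi-square of 10.6 per gene, so none was a duplicate of another. At 62017933 to 84314201 counted reads per library, the spread between cultures rather than counting error limits all but the lowest genes.

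The 9 genes and the 12 related lists were chosen with earlier results of these data known. Genes named are the 9, their partners, up to 3 increases and 3 decreases of the largest size among those called for PH-CM against UNX in each list, and their nearest genes; other list genes are named to give the levels of defining markers, and some list genes are not reported here. Labels share replicate numbers across groups, and deviations from the group means correlated between libraries of the same number in every pair (r across genes from 0.276 to 0.484, against -0.376 to 0.0423 for other pairs), so the replicate block is given as an alternative, although no source ties a number to a shared culture; FDR values are from the fit without the block unless stated. Alternatives were DESeq2 1.42.0 size factors and Wald test, upper-quartile factors, library size alone, the edgeR exact test, 3 other filters, a fit of the compared groups only, the replicate block, other fold thresholds, counts divided by 2 and each library left out in turn.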

Additional observations from a re-analysis of the deposited data

How the results depend on the processing

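Over 22 alternatives, the log2 fold changes of Csf1r, Csf2rb and Csf3r in each comparison, of Adgre4 and Cx3cr1 against UNX under PH-CM, and of Cx3cr1 between the media kept their direction, and their calls were lost only where a fold of 2 was asked for. The alternatives that change only the fold threshold use the same fit and cannot alter a direction. Adgre4 and Cx3cr1 passed the main filter only through groups where they were high, which partly fixed their direction. That threshold left 3 of the 9 genes under CO-CM, 4 under PH-CM and 1 between the media, and 1655, 2153 and 612 of all genes. Without one library, the log2 fold change of Csf1 for CO-CM against UNX ranged from -0.00046 (without UNX replicate 2) to 0.32. Within replicate numbers it was 0.12 to 0.25, and with the replicate block it was 0.17 (edgeR FDR 0.0252), under 1.2-fold. The replicate block changed 1 call, that of Cx3cr1 for CO-CM against UNX (0.66), and raised the genes called to 7037, 7714 and 3632. No other scaling moved the median of all genes by over 0.1 on the log2 scale. The 12 reads of Adgre4 in UNX and the 126 of Cx3cr1 in PH-CM limit how well the size of their changes is known.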
